A study of Oreochromis mossambicus with 6 samples.

Results

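The genes described here encode the keratin filaments and the cell-to-cell contacts of epithelial cells: keratins, desmosomal proteins, cadherins, alpha and delta catenins, and epcam. They were chosen by gene symbol, with earlier results of these data known. The symbols were those beginning with krt, evpl, dsp, dsg, jup, ctnna, ctnnd or epcam. Also taken were those beginning with muc, dsc, pkp or cdh and a digit, and ppl. Of the 32591 genes in the deposited table, 17210 have a symbol, 53 matched, and 51 of these had at least 10 counts summed over the 6 libraries. The 51 comprised 12 keratins, 12 desmosomal genes, 19 cadherins, 6 catenins, epcam and krtcap2. The last of these matches by name only, since in mammals it encodes a subunit of the complex that attaches sugars to new proteins. The table used here held no symbol matching the mucin, desmoglein or periplakin terms, and those genes are not analysed here. The cadherins cdh17 and cdh22 matched but had 4 and 9 counts in all and were not tested. Symbols are spelled as in the table, where CDH2 and cdh2, for example, are different genes.

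RNA was measured in gill filaments of male wild type Mozambique tilapia (Oreochromis mossambicus) in 2 groups of 3 fish. The oPrl fish received ovine prolactin at 5 μg per g body weight and the vehicle fish received saline, by 3 intraperitoneal injections 48 h apart, and filaments were taken 24 h after the last. All 6 fish had been hypophysectomized and had recovered for 5 days at 12 ppt, so that the vehicle fish also lacked every pituitary hormone, and they were not fed during this time. Ovine Prl is a mammalian hormone given in place of the fish's own, and the labels give a body weight of 80 to 110 g. A filament is a mixture of cell types, so that fewer cells of a type and less RNA per cell cannot be told apart in any value below.

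Keratins form the intermediate filaments of epithelial cells, built from a type I and a type II chain. Desmosomes anchor these filaments at the membrane, through plakins, plakophilins and plakoglobin on the inside and desmosomal cadherins that bind the next cell. Classical cadherins form the adherens junctions, which alpha and delta catenins tie to actin and hold at the surface. In fish gills such contacts join the pavement cells that cover the filament and the ionocytes between them.

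Library totals were 30516271 to 32959492 counts with oPrl and 21643589 to 35976655 with vehicle. Values are given as CPM, a library's counts per 1e6 counts after edgeR's TMM scaling, and they are not divided by gene length, so levels are compared between fish and not between genes. Fold changes are oPrl over vehicle on the log2 scale with their standard error (SE), from the quasi-likelihood test of edgeR, and p-values were adjusted by Benjamini and Hochberg over the 24878 genes tested. A gene was called where the adjusted p was below 0.01 and the log2 fold change was above 1 or below -1, the limits of the study. Of 8 gill epithelium symbols 5 were found (krt5, krt8, krt18, epcam and tp63; not krt4, cdh1 or cldn4), and their genes summed to 6581 to 10426 CPM with oPrl and 11547 to 12576 CPM with vehicle. All but tp63 are members here, so this shows that epithelial RNA was present in every library and is no separate check. Ionocyte markers, all 8 found, summed to 1659 to 2382 CPM with oPrl and 3189 to 4651 CPM with vehicle. The largest part of that sum was atp1a1b, at a mean of 1156 CPM with oPrl and 2570 CPM with vehicle. With oPrl 2 of 8 ionocyte markers were higher (foxi3b and atp6v1ab) and 6 of 8 lower, and none was called by edgeR. The log2 fold change was -1.15 for atp1a1b (edgeR adjusted p = 0.0123, DESeq2 adjusted p = 1.3e-06). It was -1.8 for ca2 (edgeR adjusted p = 0.088, DESeq2 adjusted p = 0.00249). The oPrl fish lay wholly below the vehicle fish in atp1a1b and ca2, and wholly above in atp6v1ab. All 8 markers of dividing cells were higher in every oPrl fish than in every vehicle fish, with 4 of 8 called by edgeR. They summed to 694 to 925 CPM with oPrl against 137 to 255 CPM with vehicle. The part of ionocytes and dividing cells in the results below was not tested.

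Prolactin injection left most of these genes without a change that passed the test. A single member was called, the cadherin CDH7, which fell, and no keratin, desmosomal gene or catenin was called in either direction. The 1 of 51 called is 1.96% of the members, against 1.4% of all genes tested (0.715% higher and 0.687% lower with oPrl). All members have a symbol, as do 14611 of the 24878 genes tested, and 19 of 51 members had a mean over 100 CPM. The figures over all genes given here were not matched to the members for symbol or level. The direction of calls over all genes depended on the scaling, with 178 higher and 171 lower under TMM, 358 and 147 with library totals alone, and 136 and 208 with upper-quartile scaling. Counting an adjusted p under 0.05 at any fold change gave 2 of 51, CDH7 and krt99, against 6.11% of all genes. At an unadjusted edgeR p under 0.05 there were 16 of 51, or 31.4%, against 21.7% of all genes. The count over all genes, 5394 with all 6 fish, changed with any single fish left out, and so did that of the members. The count of members was 8 without oPrl replicate 1 (4639 of all genes) and 8 without oPrl replicate 3 (4269). Without vehicle replicate 1 or 2 it was 9 (4154 and 4372 of all genes). It was 19 without oPrl replicate 2 (4930) and 18 without vehicle replicate 3 (5609). DESeq2, the study's tool, called CDH7 and krt99, against 6.01% of all genes, and gave no adjusted p for 6 members of low count. The 3 oPrl fish lay wholly above the 3 vehicle fish in 6 of 51 members (11.8%, against 16.3% of all genes) and wholly below in 10 of 51 (19.6%, against 12.7%). The median log2 fold change of the members was -0.17, with 32 of 51 negative, and that of all genes was 0.02. Scaled by library totals alone these medians were -0.00 and 0.19, so the sign of small differences depends on the scaling. The gap between the medians was -0.19 under both scalings, but -0.08 without vehicle replicate 2 and -0.30 without vehicle replicate 1. For 23 of 51 members the 95% interval of the log2 fold change lay inside -1 to 1, so that a change past the study's fold limit was outside it.

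**Figure D1:**
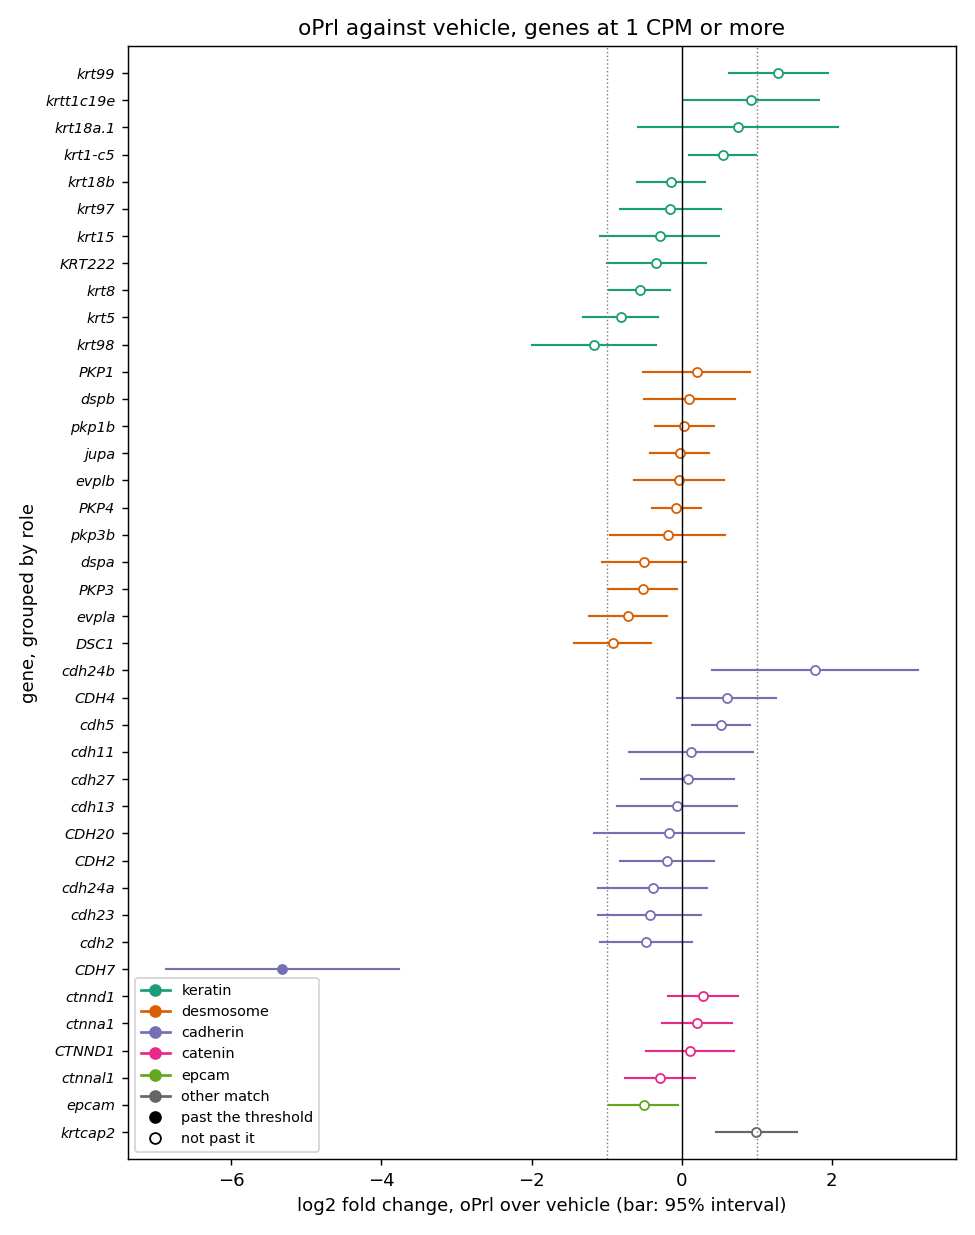
Log2 fold change of oPrl over vehicle (x axis) with its 95% interval (bar) for each member with a mean of at least 1 CPM, grouped by role (rows, colours). The filled point is the called gene, CDH7 at -5.32, and every other point is open; dotted lines mark -1 and 1.

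Among the keratins, none of 12 passed the test, and the values went both ways. The type II keratin krt5 (ENSONIG00000009137), which in mammals marks the basal layer of stratified epithelia, had 2969.8, 5037 and 3199 CPM in oPrl replicates 1, 2 and 3, against 6016, 6953 and 6717 CPM in vehicle replicates 1, 2 and 3. Every oPrl fish was below every vehicle fish, and oPrl replicate 2 was the nearest to them. The log2 fold change was -0.81 (SE 0.21, 95% interval -1.31 to -0.32, edgeR adjusted p = 0.0722). DESeq2 gave -0.85 (adjusted p = 0.008), inside the limit on p but short of that on the fold change. Without oPrl replicate 2 edgeR gave -1.09 (adjusted p = 0.012).

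The type II keratin krt8 (ENSONIG00000009133), of simple epithelia in mammals, had 1707, 2325 and 1512 CPM with oPrl, against 2638, 2754 and 2785 CPM with vehicle. The groups again did not overlap, and the vehicle fish were within a factor of 1.06 of each other while the oPrl fish spread over a factor of 1.54. Its log2 fold change was -0.56 (95% interval -0.97 to -0.15, edgeR adjusted p = 0.12). The gene krt98 had 486, 161 and 327 CPM with oPrl, against 703, 706 and 779 CPM with vehicle. Here oPrl replicate 2 was the lowest fish, not the nearest to vehicle. The log2 fold change of krt98 was -1.17 (95% interval -2 to -0.34, edgeR adjusted p = 0.111).

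Other keratins had higher values with oPrl. The gene krt99 (ENSONIG00000018806) had 319, 193 and 223 CPM in the oPrl fish, against 101, 131 and 69 CPM in the vehicle fish. No oPrl fish overlapped the vehicle fish, and the highest vehicle fish was replicate 2. Its log2 fold change was 1.29 (SE 0.28, 95% interval 0.62 to 1.95, edgeR adjusted p = 0.0425), which did not reach 0.01. By DESeq2 it was called at 1.26 (adjusted p = 0.000783). With any single library removed, the edgeR value stayed between 1.05 and 1.5, at adjusted p of 0.0468 to 0.14.

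The type I keratin krt1-c5 had 44, 38.3 and 44.3 CPM with oPrl, against 24.5, 26 and 36.2 CPM with vehicle. The groups did not overlap, although vehicle replicate 3 came close to oPrl replicate 2, and the log2 fold change was 0.55 (edgeR adjusted p = 0.156). The type I keratin krtt1c19e, which marks basal skin cells in zebrafish, had 155, 48.9 and 112 CPM with oPrl, against 65.1, 45.9 and 55.4 CPM with vehicle. In this gene oPrl replicates 1 and 3 were above all vehicle fish and oPrl replicate 2 was within their range (log2 fold change 0.93, edgeR adjusted p = 0.22).

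Keratin 18 genes encode type I partners of keratin 8 in simple epithelia, and 3 were counted. The gene krt18a.1 (ENSONIG00000009122) had 182, 756 and 172 CPM with oPrl, against 176, 201 and 283 CPM with vehicle. In it oPrl replicate 2 was above the vehicle range, at 4.39 times the lowest oPrl fish, oPrl replicate 1 was within it and oPrl replicate 3 was just below it. The log2 fold change was 0.75 (95% interval -0.58 to 2.08, edgeR adjusted p = 0.507), and without oPrl replicate 2 it was -0.31 (adjusted p = 0.521). Its relative krt18b had 159.7, 198 and 165 CPM with oPrl, against 159, 175 and 242 CPM with vehicle, with overlapping groups. The log2 fold change of krt18b was -0.14 (95% interval -0.6 to 0.32). The third of them, krt18a.2, had only 14, 9 and 14 counts with oPrl and 8, 11 and 4 counts with vehicle. Near-identical copies share reads, which counts of unique reads per gene leave out or split, so differences between krt18a.1 and krt18a.2 are uncertain.

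The remaining keratins overlapped between groups. The gene krt97 had 861, 1993 and 1136 CPM with oPrl, against 1441, 1548 and 1450.2 CPM with vehicle. The vehicle fish were again close together and the oPrl fish spread on both sides of them (log2 fold change -0.15, 95% interval -0.83 to 0.52). The type I keratin krt15, a basal cell keratin in mammals, had 201, 432 and 308 CPM with oPrl, against 255, 375 and 523 CPM with vehicle (log2 fold change -0.29, 95% interval -1.08 to 0.5). KRT222 was at 6.11 to 7.81 CPM with oPrl and 5.95 to 11.4 CPM with vehicle.

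**Figure D2:**
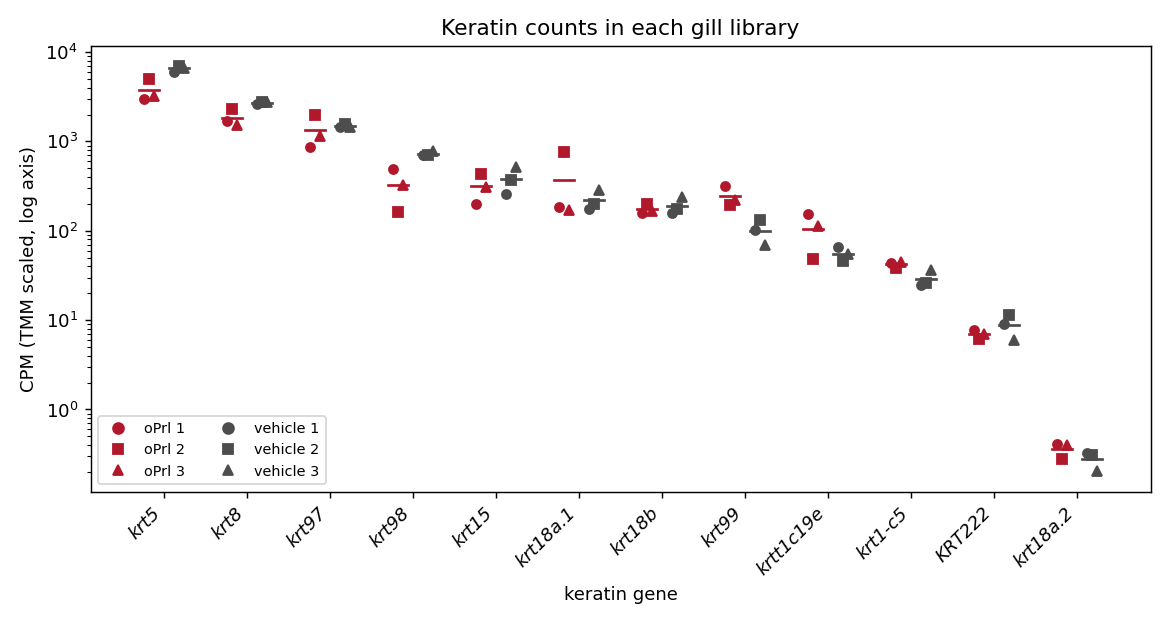
CPM (log axis) of the 12 keratins (x axis) in each library, oPrl in red left of vehicle in grey; marker shapes are replicates 1 to 3 and lines are group means. The oPrl and vehicle fish do not overlap in krt5, krt8, krt98, krt99 and krt1-c5, and oPrl replicate 2 stands at 756 CPM in krt18a.1.

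Summed over the 12 keratins, the level was 7094, 11187 and 7205 CPM in the oPrl fish, against 11588, 12927 and 12945 CPM in the vehicle fish. All oPrl fish were below all vehicle fish, with oPrl replicate 2 only just below vehicle replicate 1. As a share of all counts, without scaling, keratins took 0.786%, 1.11% and 0.788% with oPrl and 1.09%, 1.26% and 1.18% with vehicle, so on that measure oPrl replicate 2 overlapped the vehicle fish.

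The make-up of the keratin counts does not depend on the scaling between libraries. The genes krt5 and krt8 together held 65.9%, 65.8% and 65.4% of the keratin counts in the oPrl fish, against 74.7%, 75.1% and 73.4% in the vehicle fish. The 3 fish of a group were thus closer to each other than to any fish of the other group, oPrl replicate 2 included. This sum was chosen after its values were seen and is given without a test. Taken singly, the share of krt5 was 41.9% to 45% with oPrl and 51.9% to 53.8% with vehicle. The share of krt99 was 1.73% to 4.5% with oPrl and 0.533% to 1.01% with vehicle. Of the 12 keratins, krt99, krt18a.1 and krt1-c5 had shares wholly above the vehicle fish and krt5 alone had shares wholly below. Of the 12 desmosomal genes, 3 had shares of their class wholly above and 3 wholly below. Over all genes tested, CPM lay wholly above in 16.3% and wholly below in 12.7%, so these counts are not read as a result. Shares of a sum are also tied together, as a lower share of krt5 raises the others, and krt18a.1 overlapped in CPM.

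None of the 12 desmosomal genes was called. The largest difference among those above 1 CPM was in DSC1 (ENSONIG00000009697), named for desmocollin, a cadherin of the desmosome. It had 105, 164 and 104 CPM in the oPrl fish, against 237, 266 and 203 CPM in the vehicle fish. The groups did not overlap, and again oPrl replicate 2 was the nearest to the vehicle fish. Its log2 fold change was -0.92 (SE 0.22, 95% interval -1.44 to -0.4, edgeR adjusted p = 0.0555). DESeq2 gave -0.95 (adjusted p = 0.00198), short of the fold limit, and edgeR gave -1.17 without oPrl replicate 2 (adjusted p = 0.0171).

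The plakins link keratin filaments to the desmosome, and most came as pairs of fish duplicates. The envoplakin gene evpla had 673, 714 and 523 CPM with oPrl, against 1246, 1142 and 745 CPM with vehicle. The groups did not overlap, but vehicle replicate 3 was close to the oPrl fish (log2 fold change -0.71, 95% interval -1.24 to -0.19, edgeR adjusted p = 0.12). Its duplicate evplb had 189, 196 and 193 CPM with oPrl, against 243, 228 and 121 CPM with vehicle. The oPrl fish lay within the vehicle range, and the log2 fold change was -0.04 (95% interval -0.64 to 0.56). The desmoplakin gene dspa had 386, 565 and 425 CPM with oPrl, against 692, 794 and 459 CPM with vehicle, with overlap through vehicle replicate 3 (log2 fold change -0.5, 95% interval -1.06 to 0.06). Its duplicate dspb had 416, 448 and 552 CPM with oPrl, against 475, 562 and 280.2 CPM with vehicle, also overlapping (log2 fold change 0.1, 95% interval -0.51 to 0.71).

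Plakoglobin, the catenin of the desmosome, is encoded by jupa, at 614, 796 and 681 CPM with oPrl, against 764, 775 and 588 CPM with vehicle. The groups overlapped throughout, and the log2 fold change was -0.02 (95% interval -0.42 to 0.37). Among the plakophilins, which bind desmosomal cadherins and desmoplakin, PKP3 had 216, 289.6 and 252 CPM with oPrl, against 396, 409 and 281 CPM with vehicle. Of the vehicle fish, replicate 3 alone was within the oPrl range (log2 fold change -0.52, 95% interval -0.98 to -0.07, edgeR adjusted p = 0.178). The related pkp3b was at 4.02 to 8.64 CPM with oPrl and 5.87 to 8.45 CPM with vehicle. The log2 fold changes of PKP1, pkp1b and PKP4 were 0.2, 0.03 and -0.07, and each had overlapping groups.

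Since vehicle replicate 3 had low values of several of these genes, ratios of duplicates within a library, which no scaling changes, were compared as well. Of 12 pairs of members with the same base symbol, 10 had counts in every library, and in 3 of these the ratio did not overlap between groups. Among all single genes tested 16.3% lay wholly above and 12.7% wholly below, so this count is not read as a result about these pairs, and their values are given as a description. The ratio of evpla to evplb counts was 3.57, 3.64 and 2.71 in the oPrl fish, against 5.13, 5 and 6.17 in the vehicle fish. The ratio of dspa to dspb counts was 0.927, 1.26 and 0.77 in the oPrl fish, against 1.46, 1.41 and 1.64 in the vehicle fish. In both, vehicle replicate 3 had the highest ratio and not a middle value. The third pair was cdh24a and cdh24b, whose ratio was 0.625, 2.03 and 2.02 with oPrl, against 5.43, 8.2 and 4.25 with vehicle, on as few as 10 counts in a library. The ratio of krt99 to krt98, a pair added after the values were seen, was 0.656, 1.2 and 0.682 with oPrl, against 0.144, 0.186 and 0.0885 with vehicle. With 3 fish against 3 an exact permutation test of a single ratio cannot give a two-sided p under 0.1, and none is given.

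**Figure D3:**
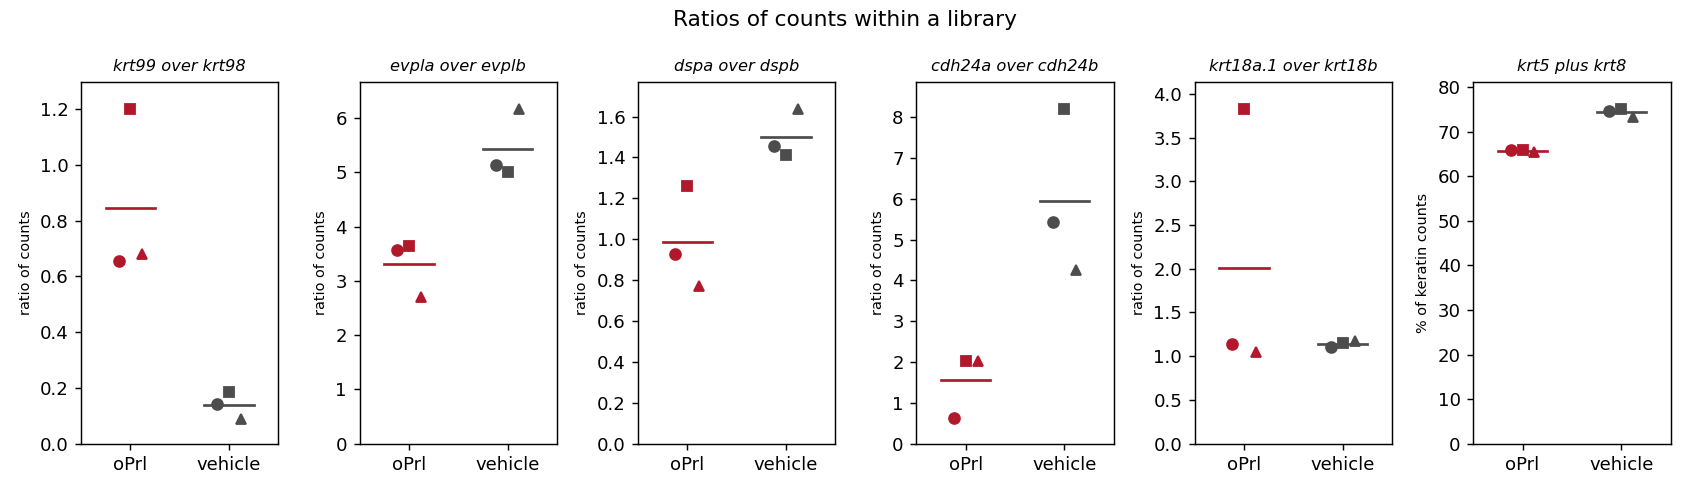
Ratios of counts within a library for 5 pairs of genes, and the share of keratin counts held by krt5 and krt8 (y axes, from 0), oPrl in red left of vehicle in grey; shapes are replicates 1 to 3 and lines are group means. Groups are apart in each panel other than krt18a.1 over krt18b, where oPrl replicate 2 alone is high at 3.83. Of 10 pairs by symbol with counts in every library, the 3 that were apart are all shown. The krt99 over krt98 and krt5 plus krt8 panels were chosen after their values were seen.

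The cadherins held the only called member. CDH7 (ENSONIG00000006338), a classical cadherin known from the neural crest and nervous system of chick embryos, had 1, 3 and 2 counts in oPrl replicates 1, 2 and 3, against 33, 137 and 46 counts in vehicle replicates 1, 2 and 3. In CPM these were 0.0296, 0.0921 and 0.0566 with oPrl, against 1.34, 3.89 and 2.34 with vehicle. Every oPrl fish was near 0 and every vehicle fish was above 1 CPM, so that the oPrl values rest on a few counts. Over the summed counts, 6 with oPrl and 216 with vehicle, the level with vehicle was 46 times that with oPrl, with an exact (Clopper-Pearson) 95% counting interval of 20.8 to 127 that leaves out the spread between fish. CDH7 thus fell with oPrl, by a fitted log2 fold change of -5.32 (SE 0.66, 95% interval -6.88 to -3.77, edgeR adjusted p = 0.00699). DESeq2 gave -5.45 (adjusted p = 1.85e-09). With any library left out the edgeR value stayed between -5.74 and -4.9. The edgeR adjusted p was then 0.0157 to 0.0394, past 0.01 in each of the 6 cases. With the replicate number as a block the edgeR adjusted p was 0.0149. Without vehicle replicate 1 edgeR called 0 genes of all tested, at a smallest adjusted p of 0.0123, with 4154 genes at an unadjusted p under 0.05.

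The nerve markers, for which all 8 symbols were found, were at 16.2 to 16.7 CPM in sum with oPrl and 14.4 to 19.3 CPM with vehicle, and none was called. Most of that sum was mbpb alone, at a mean of 11.8 CPM with oPrl and 11.9 CPM with vehicle. The nerve genes elavl3, elavl4 and syt1b had under 10 counts and were not tested. The part of nerve cells in the CDH7 result was not tested. The cadherin CDH8, also known from the nervous system, had 1 count over the oPrl fish and 12 over the vehicle fish, a ratio of vehicle to oPrl of 15.3 with a counting interval of 2.27 to 656 (edgeR adjusted p = 0.149). The cadherin cdh12a, known from the brain in mammals, went the other way, with 8, 3 and 14 counts in the oPrl fish and 1, 1 and 2 counts in the vehicle fish. In CPM its groups overlapped, and the level with oPrl was 4.89 times that with vehicle over the summed counts (counting interval 1.69 to 19.3, edgeR adjusted p = 0.209). The counting intervals of CDH8 and cdh12a also leave out the spread between fish. The related cadherins CDH6 and CDH20 were at 0.583 to 0.764 and 0.933 to 1.06 CPM with oPrl, against 0.486 to 1.31 and 0.763 to 1.66 CPM with vehicle, all overlapping.

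Vascular endothelium is marked by cdh5, the cadherin of endothelial junctions. It had 21.7, 20.9 and 18.3 CPM in the oPrl fish, against 12.8, 14.3 and 15.3 CPM in the vehicle fish. The groups did not overlap and varied little, but the log2 fold change of 0.53 (95% interval 0.13 to 0.92) was not called (edgeR adjusted p = 0.124). The other endothelial markers summed to 284 to 598 CPM with oPrl and 395 to 520 CPM with vehicle, with 5 of 10 higher and 5 of 10 lower and none called. Among them kdr, an endothelial receptor for VEGF, had a log2 fold change of -0.25, and flt1, another, had 0.71.

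The gene cdh24b had 2.84, 0.921 and 1.22 CPM with oPrl, against 0.567, 0.284 and 0.611 CPM with vehicle. The groups did not overlap, and oPrl replicate 1 was the highest (log2 fold change 1.78, 95% interval 0.41 to 3.15, edgeR adjusted p = 0.133). Without that fish the log2 fold change was 1.14 (edgeR adjusted p = 0.33). The mesenchymal cadherin cdh11 had 41.2, 14.9 and 35.3 CPM with oPrl, against 23.6, 30.4 and 29.9 CPM with vehicle, so that oPrl fish lay on both sides of the vehicle fish (log2 fold change 0.12). The gene cdh27 had 148, 124 and 178 CPM with oPrl, against 142, 189 and 94.6 CPM with vehicle (log2 fold change 0.08, 95% interval -0.54 to 0.7). N-cadherin is named by 2 genes. The more highly counted, CDH2 (ENSONIG00000009709), was at 15.8 to 27.4 CPM with oPrl and 17.6 to 28.6 CPM with vehicle, and cdh2 (ENSONIG00000007245) at 2.77 to 3.62 CPM with oPrl and 4.13 to 5.14 CPM with vehicle. Neither was called, although cdh2 did not overlap between groups. Over all 19 cadherins tested the median log2 fold change was -0.2, with 7 positive and 12 negative, and 7 had a mean under 1 CPM, where single counts decide the value.

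Of the catenins, the 3 with the most counts overlapped between groups. The alpha catenin gene ctnna1, which ties cadherins to actin, had 265, 397 and 268 CPM with oPrl, against 289, 286 and 235 CPM with vehicle. The delta (p120) catenin gene ctnnd1, whose product keeps cadherins at the surface, had 477, 602 and 459.6 CPM with oPrl, against 473, 471 and 319 CPM with vehicle. These had log2 fold changes of 0.2 (95% interval -0.26 to 0.66) and 0.28 (95% interval -0.18 to 0.75). The second p120 gene, CTNND1, had 44.2, 78.3 and 52.6 CPM with oPrl, against 54.9, 63.7 and 43.6 CPM with vehicle (log2 fold change 0.11, 95% interval -0.47 to 0.69). The delta catenin gene ctnnd2b, with few counts, had 0.532, 0.123 and 0.255 CPM with oPrl, against 1.25, 0.54 and 0.611 CPM with vehicle. Every oPrl fish was below every vehicle fish, and the log2 fold change was -1.39 (95% interval -2.95 to 0.17, edgeR adjusted p = 0.281). None of the 6 catenins was called, none had an unadjusted p under 0.05, and 4 of 6 had an interval inside -1 to 1.

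The adhesion gene epcam, a surface protein of most epithelial cells, had 1318, 1744 and 1339.9 CPM with oPrl, against 2371, 2278 and 1611 CPM with vehicle. The groups overlapped through oPrl replicate 2 and vehicle replicate 3 (log2 fold change -0.51, 95% interval -0.96 to -0.05, edgeR adjusted p = 0.186). The non-keratin krtcap2 had 62, 85.7 and 66.7 CPM with oPrl, against 31.9, 29 and 47.1 CPM with vehicle. Every oPrl fish was above every vehicle fish (log2 fold change 0.99, 95% interval 0.45 to 1.53, edgeR adjusted p = 0.0506). By edgeR krtcap2 missed both limits. DESeq2 gave 0.95 (adjusted p = 0.00457), inside the limit on p but short of that on the fold change.

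The members did not deviate evenly over the fish. Among the 30 members with a mean of at least 10 CPM, oPrl replicate 2 was the farthest of its group from the group's median in 20 of 30, and had the highest value in 19 of 30 and the lowest in 9 of 30. In the vehicle group, replicate 3 was the farthest in 20 of 30 and the lowest in 17 of 30. These counts were not made over all genes, so neither is shown to be particular to the members or general. Over all genes, chi-square per degree of freedom, a measure without direction, was 98.6 and 93.6 for oPrl replicate 2 with oPrl replicates 1 and 3. It was 26.3 between oPrl replicates 1 and 3. For vehicle replicate 3 it was 48.8 and 68.6 with vehicle replicates 1 and 2, against 38.8 between those. The oPrl fish spread over a factor of 4.39 in krt18a.1, 3.18 in krtt1c19e, 3.02 in krt98 and 2.77 in cdh11, and in each of these oPrl replicate 2 was at the end of the range.

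Genes that regulate or complete these structures were read from 7 lists, also chosen with earlier results of these data known. Of these 7 lists, 3 held genes called by edgeR. Of 11 epithelial regulators (transcription and splicing factors), 1 rose and 1 fell, with a median log2 fold change of 0.13. The factor ehf, of epithelial differentiation in mammals, had 93.5, 77 and 97.5 CPM with oPrl, against 19.7, 25.6 and 21.4 CPM with vehicle, and rose by a log2 fold change of 2 (edgeR adjusted p = 0.00305). The factor klf4, needed for the skin barrier in mice, had 7.84, 14.8 and 11.9 CPM with oPrl, against 219.7, 155 and 84.1 CPM with vehicle, and fell, at -3.73 (edgeR adjusted p = 0.00484). The groups of both genes were far apart, and vehicle replicate 1 had the highest klf4. The basal cell factor tp63 was at 299.5 CPM with oPrl and 191 CPM with vehicle on average and was not called (log2 fold change 0.65, edgeR adjusted p = 0.0966), and grhl1, grhl3 and grhl2b had 0.13, -0.6 and 0.48.

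Of 9 mesenchymal transition factors, snai2 alone was called. It had 30.4, 35.2 and 32.2 CPM with oPrl, against 6.88, 8.38 and 10.1 CPM with vehicle, and rose by a log2 fold change of 1.95 (edgeR adjusted p = 0.00412). The fish of each group were close together, whereas the other 8 factors had log2 fold changes of -0.38 to 0.53. Of 5 tested intermediate filament genes outside the keratins, the nuclear lamin gene lmnb2 alone was called. It rose, with 109.6, 131 and 103 CPM with oPrl, against 36.4, 36.4 and 31.9 CPM with vehicle (log2 fold change 1.71, edgeR adjusted p = 0.00322). The lamin gene lmna had 316, 399 and 332 CPM with oPrl, against 210, 223 and 167 CPM with vehicle. Its log2 fold change was 0.8 (edgeR adjusted p = 0.0368, DESeq2 adjusted p = 0.00108). Of the 5 genes, 3 had positive and 2 negative log2 fold changes. Among the dividing cell markers, mki67 had 151, 146 and 227 CPM with oPrl, against 35.4, 26.6 and 48.8 CPM with vehicle (log2 fold change 2.24, edgeR adjusted p = 0.00744). A link between lmnb2 and dividing cells was not tested. With a library left out, edgeR called klf4 without vehicle replicate 3 only, ehf without oPrl replicate 2 only, snai2 and lmnb2 without either of these only and mki67 in no case, at adjusted p of up to 0.0307 for klf4, 0.0213 for ehf, 0.0264 for snai2, 0.0235 for lmnb2 and 0.0497 for mki67. With the replicate number as a block none of these 5 was called, at edgeR adjusted p of 0.0105 to 0.0159. Over all genes edgeR called 0 to 215 with a library left out and 30 with the block. DESeq2 on all 6 libraries gave adjusted p of 3.27e-19 for klf4, 4.13e-21 for ehf, 3.3e-16 for snai2, 6.42e-19 for lmnb2 and 1.15e-10 for mki67.

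**Figure D4:**
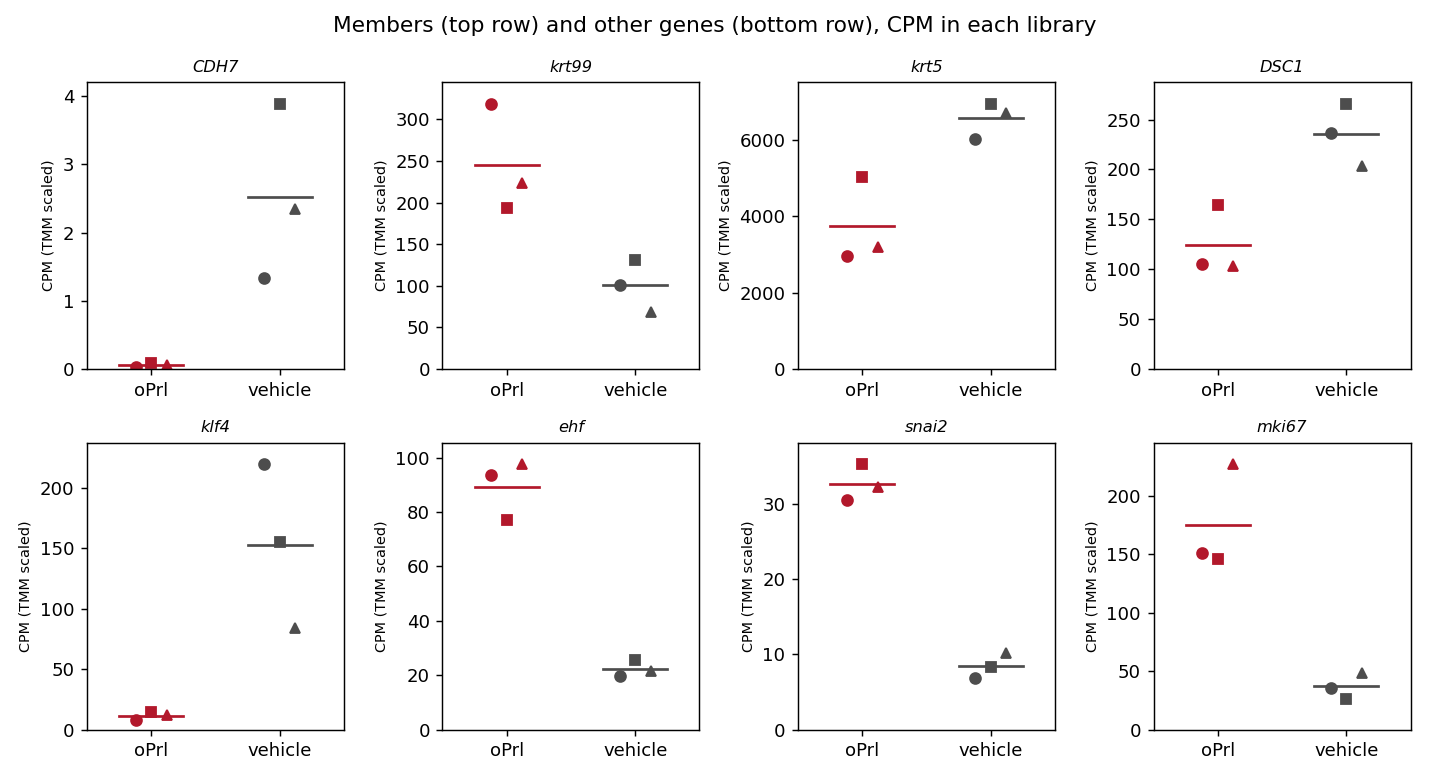
CPM (y axes, from 0) in each library for CDH7, krt99, krt5 and DSC1 (top row) and for klf4, ehf, snai2 and mki67 (bottom row), oPrl in red left of vehicle in grey; shapes are replicates 1 to 3 and lines are group means. Groups do not overlap in any panel, yet of the top row only CDH7 was called by edgeR. The top row was drawn from the members with the smallest p and the bottom row from called genes. Over all genes tested 16.3% lay wholly above and 12.7% wholly below, so the lack of overlap is not read as a result.

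No gene of the other 4 lists was called by edgeR. The 7 hemidesmosome genes, which anchor keratins to the basement membrane, had a median log2 fold change of -0.25, with itga6a at -0.49 and plecb at 0.48. The 10 adherens junction partners had a median of 0.05, and ctnnb1, the beta catenin that joins cadherins to alpha catenin, was at 0.22 (edgeR adjusted p = 0.409). The 9 mucous cell genes had a median of -0.31. Among these, galnt12, an enzyme that starts mucin glycosylation, was the highest at 1.09 (edgeR adjusted p = 0.0292, DESeq2 adjusted p = 0.000189). The lowest was FCGBP, a protein of mucus, at -1.23 (edgeR adjusted p = 0.188, DESeq2 adjusted p = 0.0522). Of 8 symbols for cornified envelope and related genes, 3 were found. Of these anxa1a had a log2 fold change of -0.93 (edgeR adjusted p = 0.0179, DESeq2 adjusted p = 6.99e-06).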

How the data were processed

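Gill filament RNA of 6 hypophysectomized tilapia was measured, 3 per treatment. The authors demultiplexed with bcl2fastq 2.20, trimmed with Trimmomatic 0.36, mapped reads with STAR 2.5.2b to the Nile tilapia genome from Ensembl and deposited raw counts, made with featureCounts from unique reads. For build and strand, the value is not given in the sources used here, so overlapping genes cannot be told apart. The row without a gene ID, 0.0901% to 0.135% of a library's counts, was left out.

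Genes whose 6 libraries held 10 or more counts in all were tested with edgeR 4.0.16 (R 4.3.3, TMM, quasi-likelihood) and with DESeq2 1.42.0 as an alternative. Standard errors were taken from the fold change and the F statistic. The code was tested on simulated counts. Alternatives were other scalings, count filters and thresholds, a block for replicate number, a robust fit and leaving out each library. Members and lists were chosen with earlier results of these data known.

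List genes were matched on symbol with an optional final a or b. Named members were every called one, the 10 with the smallest p, those with the most counts in each class and textbook members of each class; further members are given by value, having been added after their values were seen. Libraries of a group differed by more than sampling noise (chi-square per degree of freedom 26.3 to 98.6). The p-values set the group difference against the spread between these fish. Labels do not say how fish were housed, and a difference in housing between the groups, if any, would not be covered. Erythrocyte, leukocyte, cartilage and skeletal muscle markers held no called gene, with summed levels of 182 to 487, 1627 to 1838, 171 to 207 and 46.9 to 77.2 CPM with oPrl, against 229.5 to 451, 1677 to 2141, 117 to 168 and 22.3 to 201 CPM with vehicle.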

Additional observations from a re-analysis of the deposited data

How the results depend on the processing

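Of 351 values of the 27 named members under 13 alternatives, 321 kept their direction and their side of the threshold. Of the rest, 7 were CDH7 losing its call, 1 was krt99 gaining one by DESeq2, and 22 were uncalled values that changed sign. The count of members called was 1 under the other edgeR scalings, count filters and robust fit. It was 2 by DESeq2, 2 at an adjusted p under 0.05 with no fold limit, 0 with the replicate block and 0 to 0 with a library left out. Over all genes the 349 calls became 1496 by DESeq2, 1520 at an adjusted p under 0.05 with no fold limit, 30 with the replicate block and 0 to 215 with a library left out. Same-numbered libraries had correlations of deviations of -0.118, -0.022 and 0.011, so the numbers were not taken as pairs. With library totals only, the median log2 fold change was 0.19 over all genes and -0.00 over the members, and the gap between them was -0.19 as under TMM. With a library left out that gap was -0.30 to -0.08. Directions of members near 0 turned: with library totals only, krt18b was 0.0325, pkp3b 0.00892, jupa 0.14 and evplb 0.13, and with the replicate block evplb was 0.0278. With a library left out, the log2 fold change was -0.31 to 1.09 for krt18a.1, -0.0172 to 0.300 for ctnna1, -0.28 to 0.0659 for krt18b, -0.42 to 0.0724 for pkp3b, -0.57 to 0.0799 for krt97, -0.16 to 0.27 for CTNND1, -0.13 to 0.29 for dspb, -0.16 to 0.45 for cdh11, -0.13 to 0.32 for cdh27, -0.14 to 0.0594 for jupa and -0.29 to 0.14 for evplb. The cause was not tested. With 3 fish a group the 95% intervals of many members reached past 1 or -1, and a gene that missed the threshold is not shown to be unchanged.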
